A study of Oryctolagus cuniculus with 3 samples.

Results

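The genes described here are 9 genes of the stress response of the endoplasmic reticulum: the sensors ATF6 and EIF2AK3, and CHAC1, ATF3, DDIT4, STC2, HERPUD1, HSPA5 and KDELR3, which are induced under such stress and are called targets below. They were chosen by name from earlier results of the same comparison, so their ratios are given as a description and were not tested. In a value table of 22839 probes they had 20 probes, and 6774 genes had a named probe in all. The table holds 3 Agilent rabbit oligonucleotide arrays, each a direct comparison of RNA from slow-frozen embryos with RNA from vitrified embryos. After artificial insemination of does, morulae were recovered on day 3, stored in the frozen or the vitrified state, transferred to recipient does and collected as late blastocysts 3 days later, on day 6. Vitrification, which turns the embryo's solution into a glass, used dimethyl sulphoxide with ethylene glycol and a plunge into liquid nitrogen. The sources used here give neither the slow-freezing protocol nor the rabbit strain or the number of embryos per sample. Both kinds of embryo had been stored cold and transferred, and fresh embryos were not analysed here. Each value is the log2 of the frozen over the vitrified signal, negative where the signal was lower after slow freezing, with the SD over the 3 arrays. Per the labels these are biological replicates, with the dyes exchanged on replicate 2.

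Proteins that enter the secretory pathway are folded in the endoplasmic reticulum with the help of chaperones. When unfolded proteins accumulate there, the chaperone HSPA5 leaves the sensors in the membrane, which then signal to the nucleus. EIF2AK3, the kinase PERK, phosphorylates the initiation factor EIF2S1, which slows most translation but favours that of the transcription factor ATF4. ATF6 is cut in the Golgi by MBTPS1 and MBTPS2 and becomes a transcription factor for chaperone and degradation genes. Other kinases, which sense amino acid shortage, haem deficiency or viral RNA, act on the same initiation factor, so that ATF4 targets also respond outside the endoplasmic reticulum. The sensors are regulated largely as proteins, by cleavage and phosphorylation, which RNA arrays do not measure.

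Each probe is a designed oligonucleotide of 60 bases, and the sequences below are shown because several of these genes rest on 1 stretch of transcript. They are the brightest probe of each gene in the scanner files, with a second probe for EIF2AK3 and HSPA5. Capitals mark bases that another probe of the same gene in the table also reads, and lower case marks bases that only this probe reads.
CHAC1: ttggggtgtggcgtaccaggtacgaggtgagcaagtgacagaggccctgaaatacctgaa
ATF3: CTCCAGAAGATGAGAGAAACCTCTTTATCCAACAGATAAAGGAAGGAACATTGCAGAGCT
DDIT4: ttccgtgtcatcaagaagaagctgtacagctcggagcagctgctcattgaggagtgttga
STC2: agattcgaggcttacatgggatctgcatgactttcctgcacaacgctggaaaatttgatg
HERPUD1: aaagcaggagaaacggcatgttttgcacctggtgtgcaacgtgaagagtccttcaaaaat
HSPA5: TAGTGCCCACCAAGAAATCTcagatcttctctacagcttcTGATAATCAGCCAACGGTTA
HSPA5, next probe: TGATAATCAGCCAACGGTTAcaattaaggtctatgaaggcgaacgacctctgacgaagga
KDELR3: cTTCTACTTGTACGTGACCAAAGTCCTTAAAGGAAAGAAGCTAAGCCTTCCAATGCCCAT
ATF6: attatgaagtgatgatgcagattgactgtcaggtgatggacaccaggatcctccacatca
EIF2AK3: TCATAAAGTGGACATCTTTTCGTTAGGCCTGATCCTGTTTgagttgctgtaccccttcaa
EIF2AK3, next probe: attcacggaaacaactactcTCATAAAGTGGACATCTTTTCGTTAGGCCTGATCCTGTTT
CHAC1, DDIT4, STC2, HERPUD1 and ATF6 had 1 probe each. The 5 probes of ATF3 and the 5 of KDELR3 were each shifted by single bases along the transcript, so they repeat 1 measurement and are not independent. The 3 probes of HSPA5 overlapped by 20 bases and the 2 of EIF2AK3 by 40. GC content of the 20 probes ran from 40.0% to 55.0% with CHAC1 highest, and the median of all probes was 43.3%.

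The array's annotation places the probes on a rabbit genome build that the sources used here do not name. The CHAC1 probe lies at chr17:31130090-31130149, that of ATF3 at chr16:60424034-60424093, that of DDIT4 at chr18:15150306-15150365 and that of STC2 at chr3:54311191-54311250, all on the minus strand. ATF6 lies at chr13:31095352-31095411 on the minus strand and EIF2AK3 at chr2:99114358-99114417 on the plus strand. Each of these spans 60 bases of the genome without a gap. The HERPUD1 probe, at chr5:13161189-13161334 on the plus strand, spans 146 bases, and that of KDELR3, at chr4:84676526-84677250 on the minus strand, spans 725. Both spans are longer than the 60 bases of the probe, so these probes join exons across an intron. The HSPA5 probes are unmapped in that annotation. A named RefSeq gene was found for all 9 genes through transcript accessions or gene identifiers.

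The 7 targets had negative mean log2 ratios, from -1.23 to -0.25, while both sensors were near 0. CHAC1 and KDELR3 stood furthest below 0, STC2, DDIT4 and ATF3 followed close to each other, HERPUD1 and HSPA5 had smaller ratios, and EIF2AK3 and ATF6 came last. The first 5 of these genes had SDs of 0.41 to 0.59, larger than the steps between them, so their order among themselves is not resolved. With the limma test of each ratio against 0 and Benjamini-Hochberg adjustment, 0 of 22839 probes passed in either direction (0.0% each). Without adjustment 2.62% of probes were below 0 and 1.84% above 0 at p under 0.05, and in bulk RNA fewer cells of a type and less RNA per cell cannot be told apart.

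**Figure D1:**
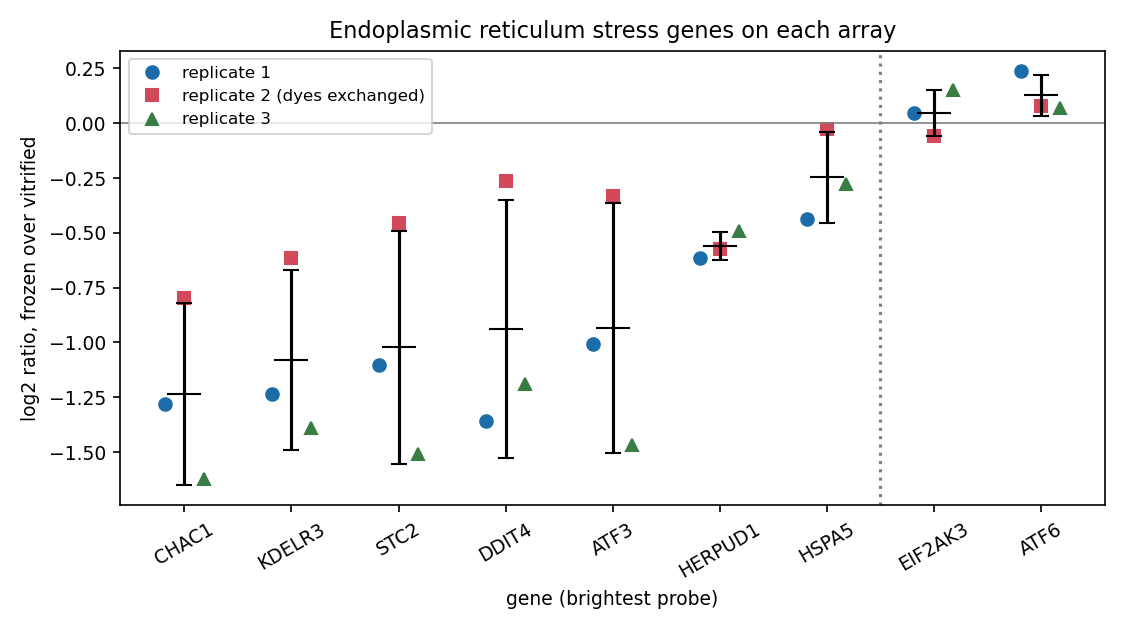
Log2 ratio of frozen over vitrified embryos (y axis) for the brightest probe of each gene (x axis) on replicates 1, 2 and 3, with the mean (horizontal bar) and SD over the 3 arrays (error bar). The 7 targets left of the dotted line are below 0 on every array, and the sensors right of it lie between -0.06 and 0.24.

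CHAC1 degrades glutathione and is a target of ATF4. Its probe had log2 ratios of -1.28, -0.80 and -1.62 on replicates 1, 2 and 3. The mean was -1.23 ± 0.42 (SD, n = 3), a signal 2.35-fold lower after slow freezing. In the scanner files the processed signal was 30.5 in frozen and 74.0 in vitrified embryos on replicate 1, and 34.3 and 106 on replicate 3. Vitrified embryos were thus the brighter on both arrays, but all 4 of these signals were dim: the raw spot was between 2.16 and 4.70 times its local background. Frozen embryos carried the same dye on both arrays, so dye and treatment cannot be told apart in these signals. The error that the scanner software assigns to this log2 ratio was 0.30 and 0.28. Of all probes, 0.59%, 2.00% and 0.28% had a lower ratio than CHAC1 on replicates 1, 2 and 3. CHAC1 was chosen from this comparison, so nothing is read from these ranks. They are also ranks among probes of every brightness, with SDs of 0.47, 0.34 and 0.35 in the same order. Within the brightness decile of CHAC1 the SDs were wider, at 0.54, 0.39 and 0.46.

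ATF3 is a transcription factor of the same arm, induced by many stresses. Its brightest probe had -1.01, -0.33 and -1.47 on replicates 1, 2 and 3, a mean of -0.94 ± 0.57 (SD, n = 3). The means of its 5 overlapping probes lay between -1.04 and -0.87. All 5 were weakest on replicate 2, between -0.60 and -0.33, and lowest on replicate 3, between -1.66 and -1.33. Processed signals were 34.9 in frozen and 70.0 in vitrified embryos on replicate 1, and 31.6 and 87.4 on replicate 3. The raw spots were 2.19 to 4.33 times their background.

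DDIT4, an inhibitor of the growth kinase complex mTORC1 that also responds to hypoxia, had -1.36, -0.27 and -1.19 on replicates 1, 2 and 3 (mean -0.94 ± 0.59, SD, n = 3). STC2, a secreted glycoprotein, had -1.10, -0.45 and -1.51 (mean -1.02 ± 0.53, SD, n = 3). DDIT4 was lowest on replicate 1 and STC2 on replicate 3, and replicate 2 gave the smallest difference for both. The signals of STC2 were 81.4 in frozen against 175 in vitrified embryos on replicate 1, and 73.4 against 209 on replicate 3. Those of DDIT4 were 48.3 against 124 and 55.4 against 126. The vitrified channel was the brighter in all 4 of these pairs.

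HERPUD1 sits in the membrane of the endoplasmic reticulum and takes part in the removal of misfolded proteins. It had -0.61, -0.57 and -0.49 on replicates 1, 2 and 3, which gives -0.56 ± 0.06 (SD, n = 3), a signal 1.47-fold lower after slow freezing. Its SD was the smallest of the 9 genes, and replicate 2 lay between the other arrays. Signals were 121 in frozen and 185 in vitrified embryos on replicate 1, and 171 and 241 on replicate 3, at 5.14 to 7.53 times background.

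HSPA5, known as BiP, is the main chaperone of the compartment and holds the sensors inactive. It had -0.44, -0.03 and -0.28 on replicates 1, 2 and 3 (mean -0.25 ± 0.21, SD, n = 3), 1.19-fold lower after slow freezing. Its 3 probes had means of -0.30 to -0.22, and on replicate 2 they lay between -0.09 and -0.03. HSPA5 was bright, with 6181 in frozen and 8370 in vitrified embryos on replicate 1 and 7286 and 8836 on replicate 3, with raw spots at 134 to 232 times background. In CHAC1, ATF3, DDIT4, STC2 and KDELR3 the raw spot of the brightest probe was at most 6.15 times background.

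KDELR3 is one of the receptors that return chaperones such as HSPA5 from the Golgi to the endoplasmic reticulum by their end sequence. Its brightest probe had -1.23, -0.61 and -1.39 on replicates 1, 2 and 3 (mean -1.08 ± 0.41, SD, n = 3), 2.11-fold lower after slow freezing. The 5 overlapping probes had means of -1.24 to -1.08. Signals of the brightest probe were 34.2 in frozen and 80.4 in vitrified embryos on replicate 1, and 42.3 and 111 on replicate 3. The family members KDELR1 and KDELR2, which do the same work, had 0.05 ± 0.31 and 0.0031 ± 0.20 (SD, n = 3) and thus lay near 0. KDELR1 was above 0 on replicate 1 only, at 0.40. HERPUD2, the relative of HERPUD1, was above 0 on every array, at 0.50, 0.26 and 0.14 on replicates 1, 2 and 3, and was named after its values were seen. The differences between family members were not tested.

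**Figure D2:**
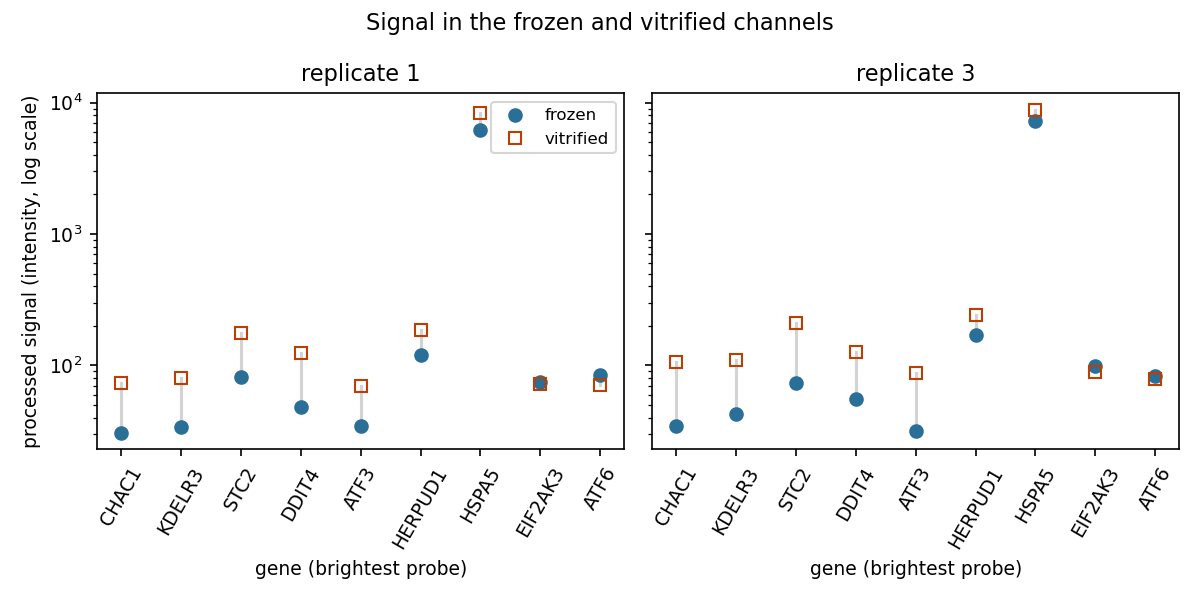
Processed signal (y axis, log scale, intensity units) of the frozen channel (filled circles) and the vitrified channel (open squares) for the brightest probe of each gene (x axis) on replicates 1 and 3. The vitrified signal lies above the frozen one for all 7 targets on both arrays, while the 2 channels nearly coincide for EIF2AK3 and ATF6. Heights are not comparable between genes, and frozen embryos carried the same dye on both arrays.

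The sensors did not share the direction of the targets. ATF6 had 0.24, 0.08 and 0.07 on replicates 1, 2 and 3 (mean 0.13 ± 0.09, SD, n = 3). The brightest probe of EIF2AK3 had 0.05, -0.06 and 0.15 (mean 0.05 ± 0.10, SD, n = 3), and its other probe had -0.06, 0.21 and 0.23. ATF6 was thus above 0 on all 3 arrays, by 0.24 at most, and EIF2AK3 changed sign between arrays with either probe. Both were dim as well, at 3.07 to 4.31 times background for the brightest probes, with signals of 83.9 and 71.2 in frozen and vitrified embryos for ATF6 on replicate 1 and 82.7 and 78.8 on replicate 3. Those of EIF2AK3 were 74.2 and 71.8, then 98.4 and 88.7. A further 3 probes of EIF2AK3 are on the array but not in the value table, with 1 to 3 of their 4 channels well above background. Their ratios were -0.06, -0.03 and 0.18 on replicate 1 and 0.15, 0.33 and 0.05 on replicate 3.

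Set against each other on each array, the mean of the 7 targets minus that of the 2 sensors came to -1.15, -0.45 and -1.25 on replicates 1, 2 and 3 (mean -0.95 ± 0.43, SD, n = 3). The choice of the genes fixes the sign of this difference, so it is a description. Probe by probe, the 17 target probes lay between -1.51 and -0.29 on replicate 1, below all 3 sensor probes, which lay between -0.06 and 0.24. On replicate 3 the target probes lay between -1.66 and -0.27 and the sensor probes between 0.07 and 0.23, again with no overlap. On replicate 2 the target probes ran from -1.01 to -0.03 and the sensor probes from -0.06 to 0.21, and 15 of 17 target probes were below the lowest sensor probe. The remaining 2 were probes of HSPA5. All 17 target probes were below 0 on all 3 arrays, where 10.9% of all probes were. The genes were chosen from this comparison, so nothing is read from that count.

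**Figure D3:**
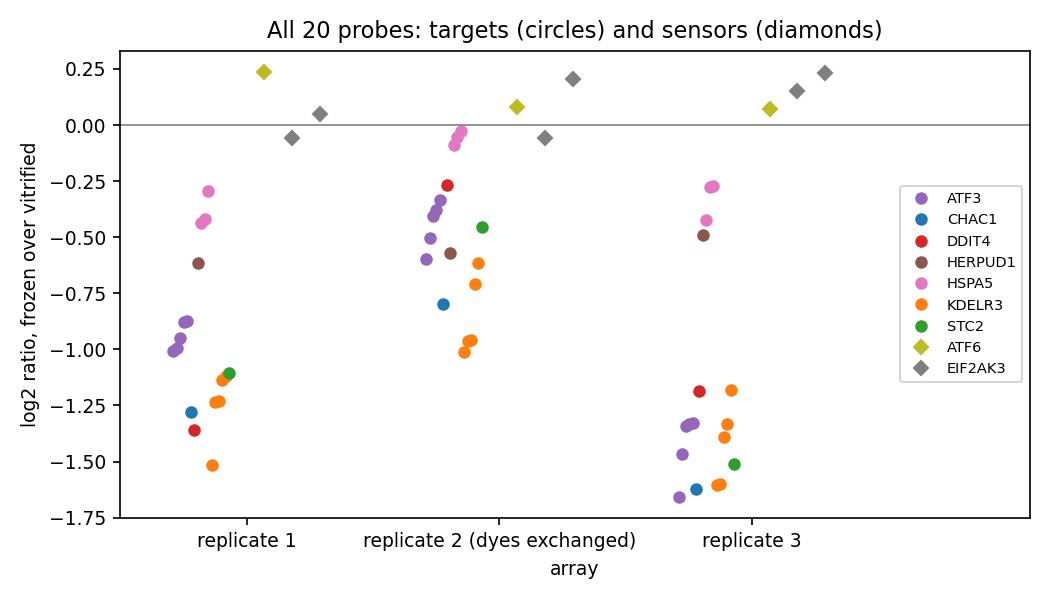
Log2 ratio of frozen over vitrified (y axis) of every probe of the 9 genes on each array (x axis), with 17 target probes as circles and 3 sensor probes as diamonds, coloured by gene. Targets and sensors are apart on replicates 1 and 3, and on replicate 2 only probes of HSPA5 reach the range of the sensors.

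The ratios of the dim targets were smaller where they were made from the raw spot signals with another treatment of the background. Such ratios could be made for replicates 1 and 3, on which frozen embryos carried the same dye. On replicates 1 and 3 alone the value table gave a mean of -1.45 for CHAC1, -1.31 for KDELR3, -1.31 for STC2, -1.27 for DDIT4, -1.24 for ATF3 and -0.55 for HERPUD1. Loess normalization of the processed signals of those arrays, with the background left as the scanner software treated it, gave -1.48, -1.33, -1.31, -1.28, -1.27 and -0.55 in this order. The means thus moved little with loess alone, an alternative added after the values were seen. From the raw spot signals with no background subtraction and the same loess, they were -0.67, -0.59, -0.85, -0.70, -0.55 and -0.41. With the normexp background model, an offset of 50 added to each signal and loess, they were -0.48, -0.40, -0.58, -0.45, -0.40 and -0.26. Without the offset, also added after the values were seen, they were -0.70, -0.57, -0.72, -0.60, -0.60 and -0.29. CHAC1, KDELR3, STC2, DDIT4 and ATF3 were then between -0.15 and -0.05 on replicate 1 and between -1.32 and -1.07 on replicate 3. Under normexp with the offset CHAC1, KDELR3, STC2, DDIT4 and ATF3 lay between -0.14 and -0.05 on replicate 1 and between -1.02 and -0.74 on replicate 3. HERPUD1 then had -0.10 on replicate 1 and -0.41 on replicate 3. Its close values across arrays in the table were thus not seen at that setting. HSPA5, the bright gene, had -0.50 on replicate 1 and -0.33 on replicate 3 there. Without background subtraction HERPUD1 had -0.41 on replicate 1 and -0.40 on replicate 3. CHAC1, KDELR3, STC2, DDIT4 and ATF3 then lay between -0.70 and -0.42 on replicate 1 and between -1.03 and -0.67 on replicate 3. The difference between targets and sensors was -0.45 with normexp and -0.67 without subtraction, against -1.20 on the same arrays in the value table. Ratios were also smaller over all probes, but to a lesser degree than in the dim targets. Across all probes the SD of the mean over replicates 1 and 3 was 0.18 with normexp, against 0.29 in the value table. On the same arrays CHAC1 had -0.48 with normexp against -1.45 in the value table, and HSPA5 had -0.41 against -0.36.

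**Figure D4:**
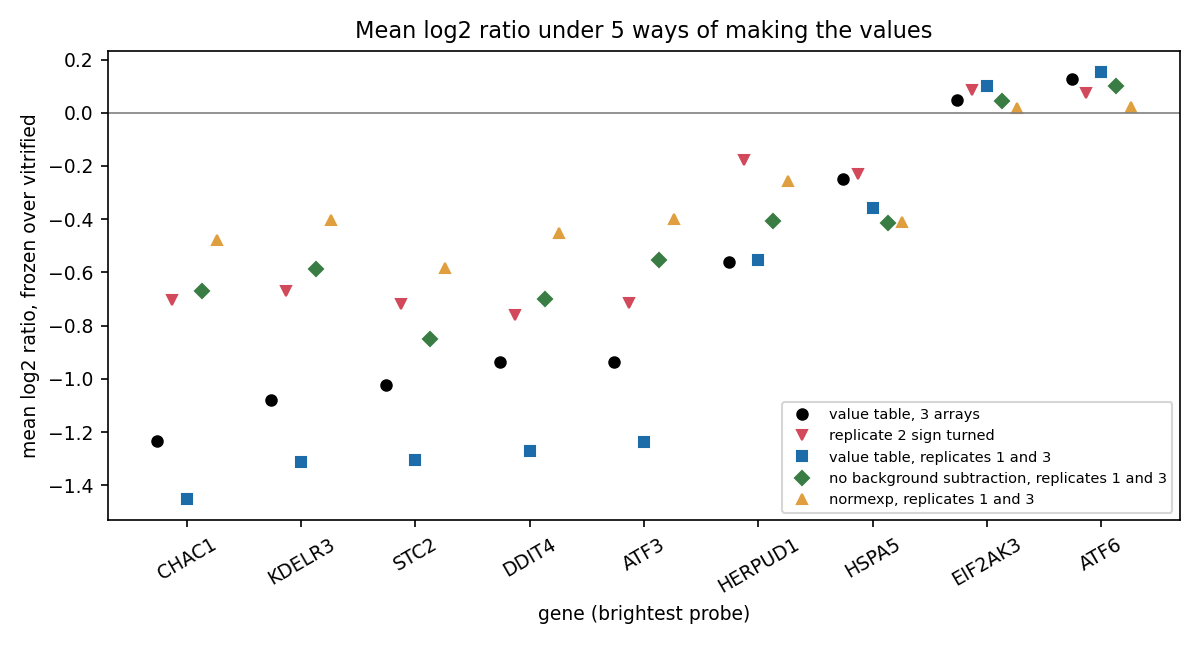
Mean log2 ratio of frozen over vitrified (y axis) of the brightest probe of each gene (x axis) made in 5 ways, from the value table on 3 arrays, with the sign of replicate 2 turned, from replicates 1 and 3 only, and from the raw signals of those arrays without background subtraction or with normexp, both with loess normalization. The 7 targets lie between -1.45 and -0.18 and the sensors between 0.02 and 0.15.

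No label gives the direction of the values of replicate 2; it was inferred from the data and is likely. Its ratios correlated over all probes with those of replicate 1 at Pearson r = -0.36 and with replicate 3 at 0.48, and replicates 1 and 3 correlated at -0.01. Over the 10 spike-in probes replicates 1 and 3 had r = 0.993, and replicate 2 had r = -0.996 with replicate 1 and r = -0.998 with replicate 3. This is the pattern of a column turned to frozen over vitrified if the spike-in mixes followed the dyes. With the sign of replicate 2 turned the means were -0.70 for CHAC1, -0.71 for ATF3, -0.76 for DDIT4, -0.72 for STC2, -0.18 for HERPUD1, -0.23 for HSPA5, -0.67 for KDELR3, 0.08 for ATF6 and 0.09 for EIF2AK3. The 9 means kept their sign, but replicate 2 would then be above 0 for all 7 targets, against negative values on replicates 1 and 3, and the SD of each target would exceed the size of its mean. For CHAC1 that SD was 1.31, for HERPUD1 0.65 and for HSPA5 0.24.

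Of 99 genes in 4 lists of the pathway, 58 had a value, and 41 had none and were not analysed here, among them ATF4, DDIT3, XBP1, ERN1 and TRIB3. None of the 58 passed the test after adjustment in either direction. With the 9 genes left out, 49 remained, with 27 below 0 and 22 above it and a median of -0.04, beside 53.1% of all named genes below 0 and a median of -0.01. Of these 49, 10 were below 0 on all 3 arrays and 4 above it, where 11.6% and 10.7% of all named genes were. At an unadjusted p under 0.05 in limma, 3 of the 49 were lower in frozen embryos, against 2.78% of named genes, and 1 was higher, against 1.4%. The 3 were the serine synthesis enzymes PHGDH and PSAT1 and the collagen isomerase FKBP14, named after their values were seen. Apart from PHGDH and PSAT1, the lowest of the 49 genes was at -0.38, closer to 0 than the 5 lowest targets.

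Among sensors and activators 6 of 13 genes had a value, all 6 with a mean above 0, between 0.02 and 0.18 (median 0.10). Of all 6774 named genes, 3176 had a mean above 0. None of the 6 had an unadjusted p under 0.05 in limma. The count rests on the brightest probe of each gene. The other probe of MBTPS2 had a mean of -0.03, and that of NFE2L2, named after its values were seen, had -0.02. EIF2S1, the factor that EIF2AK3 phosphorylates, had 0.08 ± 0.04, with 0.10, 0.11 and 0.03 on replicates 1, 2 and 3. MBTPS2, a protease that releases ATF6, had 0.13 ± 0.36 (SD, n = 3) and was below 0 on replicate 1, at -0.28. The kinases that act on EIF2S1 beside EIF2AK3 had means between 0.07 and 0.22 for the brightest probe of each. EIF2AK1, which responds to haem, had 0.15 ± 0.30, and EIF2AK2, which responds to viral RNA, had 0.22 ± 0.27. The 7 probes of EIF2AK1 had means of -0.10 to 0.21, so its direction differed between probes. EIF2AK4, which responds to amino acid shortage, had 0.07 ± 0.15 (SD, n = 3). These 3 kinases were named after their values were seen, and none of them was of 1 sign on all arrays.

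In the list of the stress kinase and ATF4 arm, 14 of 25 genes had a value and their median was -0.27. It holds CHAC1, ATF3, DDIT4 and STC2. Without these 4 the other 10 had a median of -0.17, with 6 below 0 and 4 above. The 4 above included the kinases EIF2AK1, EIF2AK2 and EIF2AK4, which act on EIF2S1 upstream of ATF4. PHGDH had -1.69, -2.01 and -2.05 on replicates 1, 2 and 3, and PSAT1 had -1.0, -1.93 and -2.12. Both were furthest below 0 on replicates 2 and 3, unlike CHAC1, ATF3, DDIT4 and STC2, which were weakest on replicate 2. The amino acid carrier subunit SLC3A2 had -0.26 ± 0.19 and its partner SLC7A5 -0.25 ± 0.39 (SD, n = 3), the second with a ratio of 0.20 on replicate 1. Both were named after their values were seen. The list thus held a few genes with large negative ratios and others within 0.30 of 0.

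Among the genes of folding and retention 18 of 28 had a value, with 13 below 0 and 5 above and a median of -0.15. Apart from HSPA5 and KDELR3 the other 16 lay between -0.38 and 0.15. HSP90B1, the chaperone GRP94, had -0.38, 0.02 and -0.26 on replicates 1, 2 and 3 (mean -0.21 ± 0.21, SD, n = 3), close to HSPA5 on each array. The lectin chaperone CANX had -0.13 ± 0.41, while its soluble relative CALR had 0.15 ± 0.41, with 0.61 on replicate 1. The disulphide isomerases PDIA4, PDIA6 and P4HB had -0.20 ± 0.42, -0.20 ± 0.17 and -0.25 ± 0.80, and the cochaperone DNAJB9 had -0.15 ± 0.18 (SD, n = 3). The 7 probes of PDIA4 had means of -0.20 to 0.0077, and the 5 probes of CALR had means of -0.00024 to 0.15. With the sign of replicate 2 turned PDIA4 had 0.24, PDIA6 0.0081 and DNAJB9 0.068, each a change of sign. P4HB was far apart between arrays, at -1.15 on replicate 1 and 0.40 on replicate 2. These ratios were small beside the spread between arrays for CANX, CALR, PDIA4 and P4HB.

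In the list of degradation and translocation 20 of 33 genes had a value, with 11 below 0 and 9 above and a median of -0.0087. HERPUD1 was the lowest of them. SEL1L, a partner of the ubiquitin ligase of this pathway, had -0.24 ± 0.40, with 0.23, -0.48 and -0.46 on replicates 1, 2 and 3, and its 3 probes had means of -0.24 to 0.28. DERL1, a part of the export channel, had -0.0032 ± 0.08 (SD, n = 3).

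**Figure D5:**
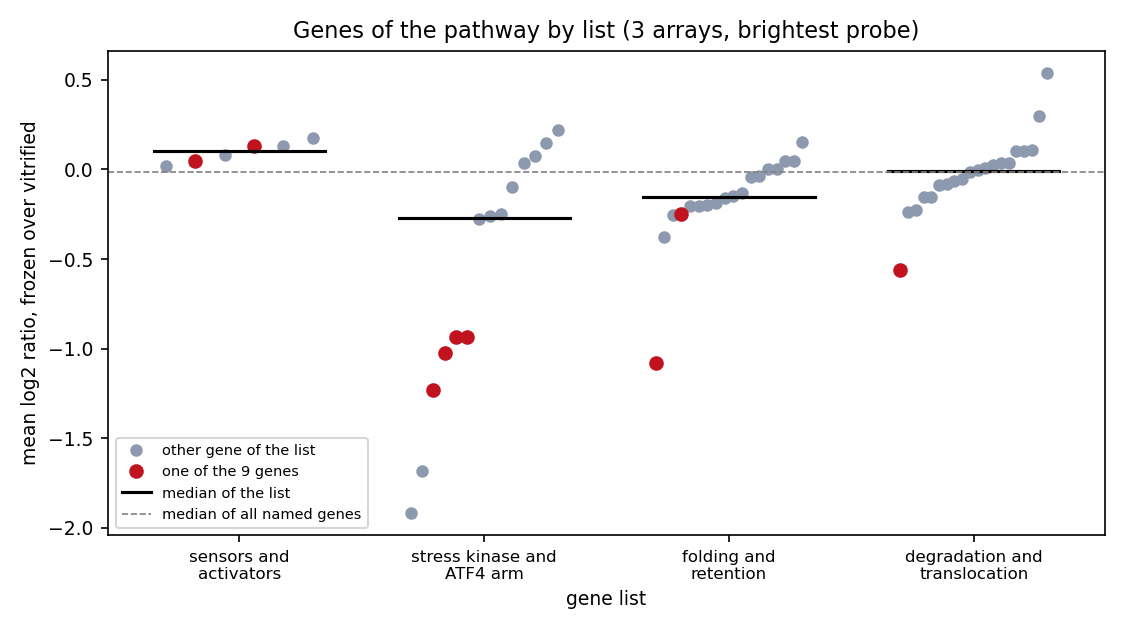
Mean log2 ratio of frozen over vitrified on 3 arrays (y axis) for each measured gene of the 4 pathway lists (x axis), ordered within a list by value. Red points are the 9 genes, grey points are other genes, black bars are list medians of 0.10, -0.27, -0.15 and -0.0087 from left to right, and the dashed line is the median of all named genes.

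The genes most like CHAC1 over the 3 arrays, by Euclidean distance of the log2 ratios with 1 probe per gene, were POU5F1 (distance 0.60), LXN (0.67) and RADIL (0.70). Among those most like ATF3 were CPXM1 (0.22) and POU5F1 (0.35). HERPUD1 lay nearest to RARRES2 (0.13), B4GALNT2 (0.15) and CHST8 (0.18). With 3 arrays this likeness is a weak description.

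POU5F1, the pluripotency factor of the epiblast, had -0.75, -0.52 and -1.62 on replicates 1, 2 and 3 from 1 probe. In the epiblast marker list 4 of 7 genes had a value and 3 were below 0, and list medians were -0.45, -0.21 and -0.30 on replicates 1, 2 and 3. ETV4 had -1.04, -0.06 and -0.63 on replicates 1, 2 and 3, DPPA5 had -0.15, 0.13 and 0.42, and LIN28A had -0.02, -0.36 and 0.03. The summed processed signal of that list was 8326 in frozen and 12307 in vitrified embryos on replicate 1, and 6751 and 12487 on replicate 3. POU5F1 weighs most in this sum, as the brightest marker of the list, with a mean log2 signal of 12.6 against 11.5 for DPPA5. The part of epiblast RNA in the ratios of the 9 genes was not tested. NANOG and SOX2 were not analysed here. In the hypoblast list 9 of 13 genes had a value and all 9 means were below 0, with medians of -0.13, -0.81 and -1.06 on replicates 1, 2 and 3. The summed signal was 3608 in frozen and 2987 in vitrified embryos on replicate 1, and 3416 and 8850 on replicate 3. Of the trophoblast list 5 of 7 genes had a value, with medians of -0.31, 0.26 and 0.36 on replicates 1, 2 and 3. The red cell list had 1 of 9 genes, ALAS2, at 0.34, -1.73 and -1.21. Of the uterine list 2 of 6 genes and of the blood and immune list 2 of 7 had a value, with medians of -0.48, -0.31 and -0.44 and of 0.23, -0.20 and 0.12. The part of these cell types in the ratios was not tested either.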

How the data were processed

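The authors deposited a value table of log2 ratios for 3 arrays and scanner files for replicates 1 and 3; no scanner file of replicate 2 was analysed here. Agilent Feature Extraction 10.10.1.1 read the images, per the submitters' processing notes. The scanner files hold, per the file headers, raw and processed intensity in each channel, a log10 ratio of red over green, and an error score of that ratio from the software's error model. Processed intensity is background-subtracted, detrended and dye-normalized by that software, per the file headers. The table's columns of replicates 1 and 3 equalled log2 processed red over green within 0.015, which is frozen over vitrified by the labelled dyes; column medians were -0.015, 0.021 and 0.017. Of its 22865 rows 26 are controls, and all 22839 probes kept were well above background in the 4 scanner channels; the sources used here do not give the authors' filter. None was saturated, and the number of arrays limits the precision.

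Probes were named through RefSeq accessions (8381), gene identifiers (5294), symbols (709) or a transcript shared with a named probe (266), with the RefSeq gene table of mOryCun1.1; 8189 had no name. A gene was represented by its brightest probe. Ratios were tested against 0 with limma 3.58.1 in R 4.3.3, on all probes, with a threshold of 0.05, after a trial on simulated data; Python 3.11.15 and pandas 2.3.3 were used for joins. The labels put all arrays in 1 group, and array and replicate coincide. The 9 genes, the gene lists and the tests were chosen with earlier results of these data known. Besides the 9 genes, the naming rule took a fixed list of 30 pathway genes, of which 13 had a value, and the 3 nearest genes to each of CHAC1, ATF3 and HERPUD1; a few genes under these rules are not reported here, others named are marked as chosen after their values were seen, and marker genes come from fixed lists. The alternatives were the sign of replicate 2, dye as a covariate, centring, a filter on dim probes, other background handling with loess normalization, all probes of a gene and each array left out; loess on the processed signals and normexp without an offset were added after seeing the data.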

Additional observations from a re-analysis of the deposited data

How the results depend on the processing

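Under the alternatives that could be computed the means of the 7 targets ran from -1.48 to -0.15 and those of the sensors from -0.0056, for EIF2AK3 without replicate 3, to 0.16. Genes below 0 on all 3 arrays keep that sign when an array is left out, so nothing is read from it. The difference between targets and sensors was -0.45 with normexp and ran from -1.20 to -0.80 with 1 array left out. It could not be computed without the dimmest 25% of probes, which hold both sensors and CHAC1, ATF3, DDIT4 and KDELR3. No probe passed in limma except without replicate 1, where 796 of 22839 did (553 lower and 243 higher). Among these were 7 of the 20 probes of the 9 genes, from which nothing is read since the genes were chosen from this comparison. Thus the range with 1 array left out was 0 to 796; without adjustment 1020 probes had p under 0.05 on all 3 arrays. With the sign of replicate 2 turned the median of sensors and activators was 0.081 and that of folding and retention -0.031, and PDIA4, PDIA6 and DNAJB9 changed sign to 0.24, 0.0081 and 0.068. On replicates 1 and 3 alone the ATF4 arm had a median of -0.43 and the degradation list -0.042, both from the table and from the processed scanner signals, which match the table within 0.015. With loess on those signals, chosen after seeing the data, the ATF4 arm had -0.43. With normexp the medians were 0.054 for sensors and activators, -0.11 for folding and retention and -0.044 for degradation, and without its offset, also added later, 0.061, -0.11 and -0.047. Without background subtraction they were -0.42 for the ATF4 arm, -0.11 for folding and -0.061 for degradation. Over all probes of a gene the sensor list had 0.082. With 1 array left out the medians ran from 0.051 to 0.11 for sensors and activators, from -0.43 to -0.24 for the ATF4 arm, from -0.14 to -0.12 for folding and from -0.042 to 0.0094 for degradation. The cause of these shifts was not tested. No paired analysis was possible because each array is already a pair and all arrays form 1 group.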

Other observations

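The arrays differed in how far the targets lay from 0. Of the 17 target probes, 16 were closest to 0 on replicate 2, the array with exchanged dyes, where 36.1% of all probes were closest to 0 on that array. The exception was HERPUD1, closest to 0 on replicate 3. PHGDH and PSAT1, targets of the same ATF4 arm, had -2.01 and -1.93 on replicate 2 and were closest to 0 on replicate 1, at -1.69 and -1.0. Many of the 16 probes overlap, so they stand for 6 genes.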
